A study of Mus musculus with 4 samples.

Results

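The 80 genes described here encode the protein components of the cytoplasmic ribosome. They were found by symbol: every gene row named Rpl or Rps with a number, together with Rplp0, Rplp1, Rplp2 and Rpsa, that held at least 100 unique molecular identifiers (UMIs, 1 per captured molecule) in each of the 2 count files. Of 32285 gene rows, 83 had such a symbol and 80 passed the minimum, which 12737 genes passed in all. The 80 are 31 genes of the small subunit, 46 of the large subunit including its stalk, and 3 paralogs that resemble a ribosomal protein gene (Rpl22l1, Rps27l and Rpl7l1). Just outside the minimum lay Rpl3l with 126 and 99 UMIs in the homeostasis and 5-FU files, Rpl10l with 422 and 8, and Rpl39l with 594 and 57. The members with the lowest counts, by the smaller of the 2 files, lay far above the minimum. They were Rpl7l1 with 16201 and 12919, Rps27l with 73059 and 47089, and Rpl22l1 with 208887 and 131796. Ribosomal protein genes with other symbols are not described.

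A ribosome is built in the nucleolus from ribosomal RNA and one copy of most of these proteins, and then exported as a small subunit, which reads the mRNA, and a large subunit, which joins amino acids. Their mRNAs are known as TOP mRNAs, because transcription starts at a C followed by an unbroken stretch of pyrimidines, a feature through which the mTOR pathway and the RNA-binding protein Larp1 control their translation. In blood formation the family is best known from Diamond-Blackfan anemia, in which loss of a single copy of one of these genes impairs red cell production, and from the low rate of protein synthesis of hematopoietic stem cells.

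The cells came from bone marrow of C57BL/6 mice and were sorted as Lineage-, Sca-1+ and cKit+ (LSK), a gate that captures blood stem cells together with multipotent progenitors. Wild-type mice were Sin3B F/F, with both Sin3b alleles floxed and intact. Knockout mice were Sin3B F/F; Vav1-iCre+, in which Cre is active in the hematopoietic system from the embryo on, to delete Sin3b, a scaffold of a histone deacetylase complex, in blood cells. One library was made at homeostasis, from untreated male mice, and one 9 days after 5-fluorouracil (5-FU, 100 mg/kg by intraperitoneal injection), a drug that kills dividing cells, and the sources used here give no age for these mice. Each library held cells pooled from 2 mice per genotype, told apart by a hashtag antibody whose genotype comes from the study's methods and not from the labels. With 1 pool per genotype and library, no test across animals could be made. Intervals below are 95% counting intervals, which cover the error of counting UMIs and not the spread between mice or between cells. The condition coincides with the library, so the 2 libraries cannot be told apart from the treatment and their values are only set side by side.

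The cells that passed the hashtag, quality and lineage filters numbered 10284 (wild type) and 4120 (knockout) at homeostasis, and 4837 and 3292 in the 5-FU library, with medians of 6982, 6620, 9295 and 10946.5 UMIs per cell. Levels are UMIs of a gene scaled to 1000000 gene UMIs of the pool (CPM). Sin3b itself had 81.9 CPM at homeostasis in the wild-type pool and 23.2 CPM in the knockout pool, and 112.6 and 15.1 CPM after 5-FU. The libraries shared 76 barcodes, of 23931 and 12753 cells. Clusters were made without the ribosomal protein genes, other translation genes and a list of S phase and of G2 and mitosis genes. Other cell cycle genes were not left out, and clusters led by histone genes were found in both libraries. The clusters are thus not independent of the cell cycle. They were named from stem and lineage markers: LT-HSC-like (after long-term stem cells), MkE-primed-like (megakaryocyte and erythroid), myeloid-primed-like and, at homeostasis alone, lymphoid-primed-like. These are the classes compared below, and a macrophage or monocyte-like cluster of 10 cells after 5-FU (3 wild type and 7 knockout) is given by its share alone. The remaining clusters, which hold a large part of the cells, stayed unnamed and count among the other cells. Most myeloid-primed-like cells at homeostasis, 1515 cells of both genotypes, lay in a cluster led by replication genes such as Ung, E2f1 and Uhrf1. In wild-type LT-HSC-like cells, 9 of 9 LT-HSC markers were above the other cells, by a log2 ratio of 0.897 or more in both libraries, which is a description, since these markers named the clusters. Markers of B, T, erythroid, macrophage, mast and stromal cells were each at 0.0189% of UMIs or less in every pool, its LT-HSC-like cells and its other cells. Of the 80 genes, 58 carry a 90-base stretch near the 3′ end that is identical in another gene's transcript, and in 37 of them over 50% of such stretches are shared, so their levels depend on how the authors' software assigned reads to near-identical copies.

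The first bases of the transcript are where these genes are known to resemble each other, and a minority of the annotated starts held the letters searched for. RefSeq (GRCm38.p6) gave promoter sequence for 60 of the 80 genes, with 71 starts. An unbroken run of 8 or more C or T bases on the gene's own strand lay within 10 bases of 22 starts (31.0%), against 2592 of 32851 starts of all genes in the table (7.89%). A C at the start itself followed by 4 pyrimidines was found at 13 starts (18.3%) against 823 (2.51%). The run was present at 3 of 8 starts of other TOP mRNAs, at 5 of 75 starts of mitochondrial ribosomal protein genes (6.67%) and at 0 of 27 starts of ribosome biogenesis genes. These counts describe annotated letters, and no factor's binding was measured.

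The following windows run from 10 bases before to 10 bases after the annotated start, 5′ to 3′ on the gene's strand, and capitals mark an unbroken run of 8 or more C or T. Shown first are genes that hold a run and that recur in the results, from the most counted gene after 5-FU (Rps24) to those that differed most between genotypes or cell classes.
Rps24, chr14:24490668-24490688, plus strand: gctggggTCCTTCCTTgcgcg
Rps27, chr3:90213638-90213658, minus strand: cgctttcgCTCCTTTCCggcg
Rpl14, chr9:120571507-120571527, plus strand: ggCCCTCTCTCTTCTCgctga
Rpl15, chr14:18270976-18270996, minus strand: agaaagCCTTCTTCCTTTCCT
Rplp2, chr7:141447641-141447661, plus strand: cagcgTCTTCCTTTCgccgcc
Rps6, chr4:86857357-86857377, minus strand: gaagtcgggCCTCTTTTTCgt
Rpl13a, chr7:45128735-45128755, minus strand: cctgcgacaagaCCTCCTCCT

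The second set holds both paralog pairs that could be compared, with Rps27 above as the partner of Rps27l, and the genes that were lowest in LT-HSC-like cells. Of these, Rpl22l1 has a run that lies after the annotated start, and the others have none within this window.
Rps27l, chr9:66946076-66946096, plus strand: cctccccgccgcctctatccc
Rpl22, chr4:152324426-152324446, plus strand: cttctggaatgttccagctcc
Rpl22l1, chr3:28805498-28805518, plus strand: gcgcaagcccgTTCTCTTCCC
Rps2, chr17:24720053-24720073, plus strand: gtcgagatctcgcgcttcttg
Rpsa, chr9:120127756-120127776, plus strand: ttatttaaggacgtcatttcc
Rpl41, chr10:128549158-128549178, minus strand: gggccggctcggaagtgacga

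The 80 genes together were a large part of the RNA counted in these cells. In wild-type cells they held 26.88% of UMIs at homeostasis and 30.44% after 5-FU. Single cells ranged widely around these values: at homeostasis the middle 80% of wild-type cells lay between 22.0% and 33.0%, and after 5-FU between 23.4% and 34.3%. Genes of the small subunit supplied 45.95% of the family's UMIs at homeostasis and 44.73% after 5-FU in wild-type cells, and 46.38% and 44.80% in knockout cells.

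Single genes spanned about 2 orders of magnitude, and the order differed between the libraries. UMIs here were counted 1 per molecule at the 3′ end, so levels were not divided by transcript length, and the levels are captured molecules in CPM. At homeostasis the 4 most counted genes in wild-type cells were Rps29 at 8915 CPM, Rps28 at 7925, Rpl39 (a small protein of the peptide exit tunnel) at 7913 and Rps24 (which acts in rRNA processing) at 7597. After 5-FU they were Rps24 at 7478 CPM, Rpl32 at 7355, Rpl13 at 6906, Rps12 at 6551 and Rpl23 at 6464. Rps29 and Rps28, ranked 1 and 2 at homeostasis, were ranked 53 and 62 in the 5-FU library, with 3232 and 2847 CPM.

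The least counted gene in both libraries was Rpl7l1, with 74.9 and 89.4 CPM, followed by Rps27l with 324 and 288 CPM. Next at homeostasis came Rps2 (a protein near the mRNA entry site) with 747 CPM, Rpl7a with 904 and Rpl29 with 932. After 5-FU the next were Rpl22l1 with 830 CPM, Rpl4 (whose loop lines the exit tunnel) with 1594 and Rpl7a with 1797. Rps2 stood at 2582 CPM there. The 21 genes with transcripts of 500 bases or less had a median of 3673 CPM at homeostasis against 2834 for the longer ones, and 3232 against 3842 CPM after 5-FU. Spearman's rho of level and transcript length over the 80 genes was -0.21 at homeostasis and 0.17 after 5-FU, a description over genes of 1 library each.

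**Figure D1:**
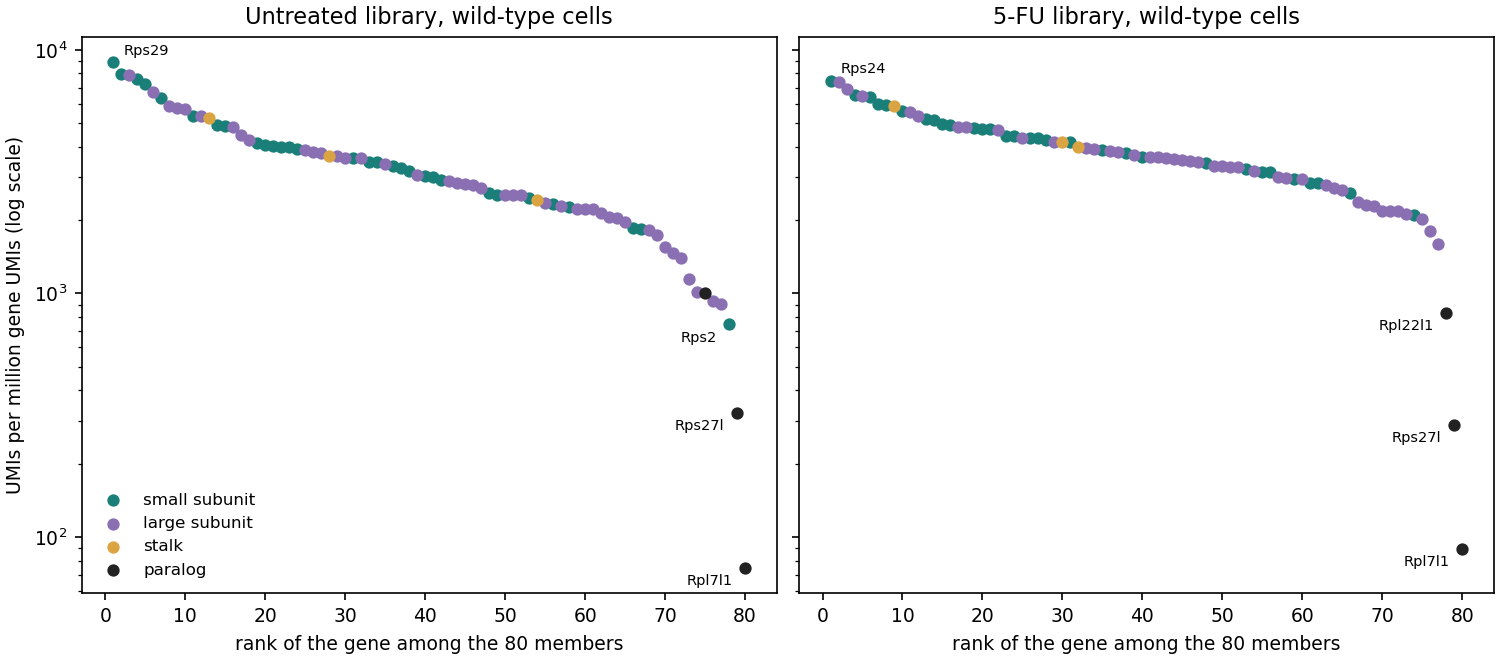
Level in CPM (log axis) of each of the 80 genes in wild-type cells, ranked from most to least counted, at homeostasis (left) and in the 5-FU library (right), coloured by subunit. Rps29 leads at homeostasis with 8915 CPM and Rps24 after 5-FU with 7478 CPM, and Rps27l and Rpl7l1 close the order in both.

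The share of UMIs in the family differed little between cell classes and more between clusters. In wild-type cells at homeostasis it was 26.40% in LT-HSC-like cells, 26.94% in MkE-primed-like, 27.76% in myeloid-primed-like and 28.55% in lymphoid-primed-like cells. The lymphoid-primed-like value pools 26.71% in the cluster with the higher share of lymphoid markers (0.311% of UMIs) and 29.97% in the other (0.138%). The former had 5 lymphoid and 0 myeloid markers raised. The other was led by Slc16a11 and Wfdc17, with 4 lymphoid and 3 myeloid markers raised. The class thus ranks above the MkE-primed-like and myeloid-primed-like cells through this second cluster, since the former lies below both. After 5-FU it was 29.19% in LT-HSC-like, 31.40% in myeloid-primed-like and 31.84% in MkE-primed-like wild-type cells, with no cluster named lymphoid-primed-like. A cluster of 425 cells there had 5 lymphoid and 5 myeloid markers raised and stayed unnamed. Its share was 31.50% (wild type) and 32.80% (knockout). The 3 wild-type cells of the macrophage or monocyte-like cluster had 29.08%. Among the stem and lineage-primed classes LT-HSC-like cells were thus lowest in both libraries, by less than the standard deviation over single cells, which was 4.32 percentage points in wild-type LT-HSC-like cells at homeostasis and 4.15 after 5-FU. Without quality and lineage filters they were 1.04 points above the other wild-type cells at homeostasis. A low share was not particular to this class. An unnamed cluster with 1744 wild-type cells had 24.60% at homeostasis, and one with 609 had 28.27% after 5-FU. Each had 2 LT-HSC markers raised, and other unnamed clusters lay on both sides of the LT-HSC-like share.

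Among clusters of both genotypes, the share at homeostasis ran from 20.9% in a group of 20 cells led by B-lineage genes such as Ebf1, Cd79a and Vpreb1 to 32.0% in an unnamed cluster of 1090 cells with a median of 4824 UMIs. After 5-FU it ran from 9.40% to 32.5%. The lowest value came from 167 cells with a median of 1741 UMIs and 19.96% of UMIs from mitochondrial genes, and the next lowest, 24.8%, from 19 cells again led by Ebf1, Vpreb3 and Igll1.

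**Figure D2:**
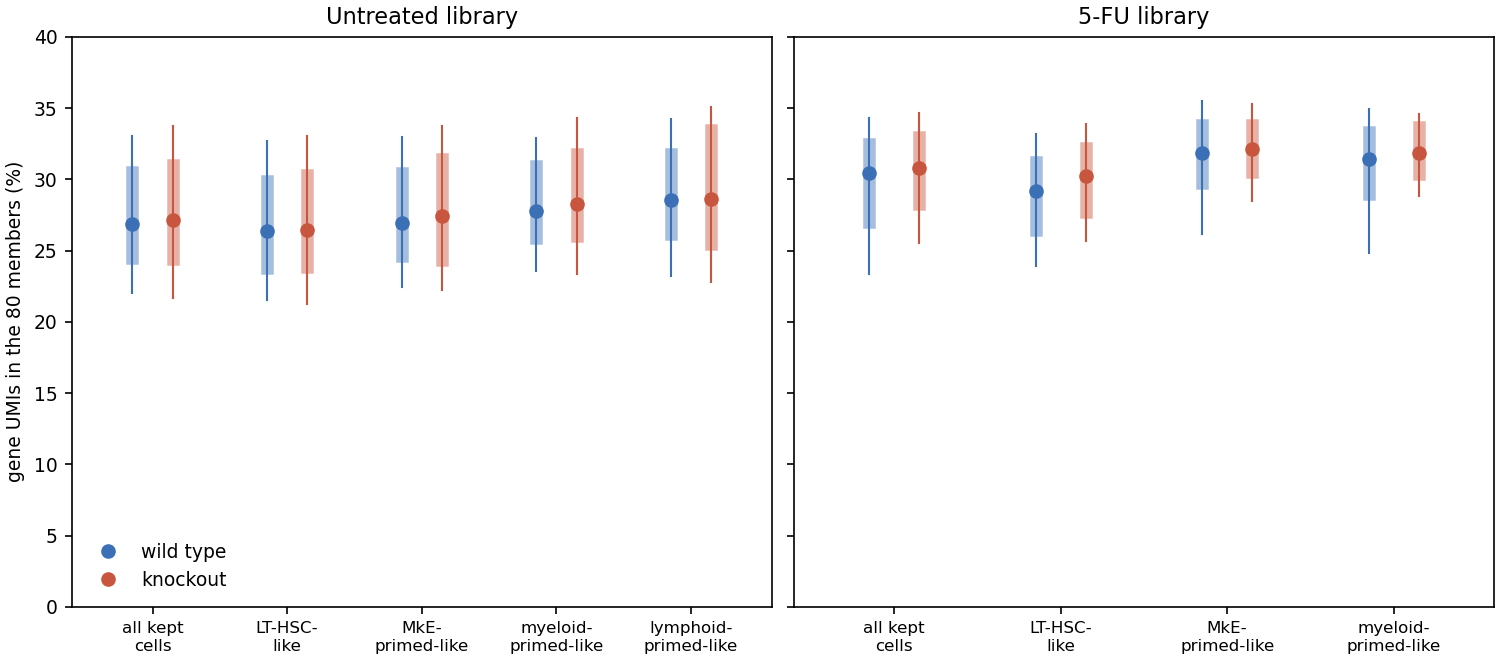
Percent of gene UMIs that fall in the 80 genes, by cell class and genotype, at homeostasis (left) and in the 5-FU library (right, which had no cluster named lymphoid-primed-like). Dots are shares of the summed UMIs, thick bars the interquartile range of cells and thin lines the 10th to 90th percentile, and the genotypes of each class overlap over most of their range, with LT-HSC-like dots lowest of the classes plotted in both libraries. The macrophage or monocyte-like cluster of 10 cells is not plotted.

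In both libraries the knockout share of the family was slightly above that of the wild type. At homeostasis it was 27.13% against 26.88%, a difference of 0.244 points (0.226 to 0.262), and after 5-FU it was 30.76% against 30.44%, a difference of 0.316 points. The standard deviation over single wild-type cells was 4.32 points at homeostasis and 5.06 after 5-FU, more than 10 times these differences. With knockout cells weighted so that each cluster had its wild-type share, the differences were 0.396 and 0.717 points. No interval was made for these, and they rest heavily on few knockout cells. Clusters with 17.0%, 6.51% and 11.2% of wild-type cells at homeostasis held 35, 35 and 20 knockout cells. One with 7.32% after 5-FU held 32. Without quality and lineage filters the differences were 0.337 and 0.0744. The direction rested on the hashtag rule: when a cell had to carry 80% of its hashtag UMIs on 1 tag, the difference was -1.12 points at homeostasis and -0.395 after 5-FU. The 80% rule was applied to all cells with at least 10 hashtag UMIs and not to the singlets alone. Cells that the main rule left out could thus enter, and it is not a stricter cut of the same cells. That rule left 876 knockout cells at homeostasis with a median of 9149.5 UMIs, against 4120 with a median of 6620 under the main rule. After 5-FU it went the other way, with 4039 knockout cells and a median of 8777 UMIs, against 3292 and 10946.5. The main rule gave 3727 knockout singlets there before filters. Cells without a tag, described at the end, are in neither pool and had Sin3b levels nearer to those of the knockout.

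Depth moved with the share within each pool. At homeostasis it ran from 29.25% down to 25.23% of UMIs between the shallowest and deepest of 5 equal bins of wild-type cells, and from 29.44% to 25.59% in knockout cells. After 5-FU it went the other way at first, from 25.14% in the shallowest bin of wild-type cells to 31.88% in bin 4 and 31.19% in the deepest, and from 27.00% to 31.87% and 30.69% in knockout cells. The shallowest wild-type bin held cells of 986 to 5864 UMIs after 5-FU and of 3327 to 5100 at homeostasis. Mitochondrial genes held 5.19% and 2.16% of its UMIs. Barcodes of the 5-FU library had no minimum of UMIs, and the part of this was not tested. The part of depth in the difference between genotypes was not tested. With cells of at least 4000 UMIs thinned to that number, the differences were 0.237 and 0.559 points. As means of all kept cells, not thinned, they were 0.228 and 0.557. Thinning at random leaves the share expected of a cell as it was, so it cannot show the part of depth.

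Within classes, the knockout share was above the wild-type share by 0.473 points in MkE-primed-like and 0.516 in myeloid-primed-like cells at homeostasis, and by 0.251 and 0.431 after 5-FU. In lymphoid-primed-like cells, with 86 knockout cells, the difference was 0.0926 points (-0.0211 to 0.206), and its interval held 0. The genotypes filled the clusters of a class unequally at homeostasis. The lymphoid-primed-like class was made of a cluster with 781 wild-type and 66 knockout cells, in which the knockout share was higher by 1.27 points (1.14 to 1.40), and one with 1155 and 20 cells, in which it was higher by 1.79 (1.52 to 2.07). The myeloid-primed-like class was made of a cluster with 1228 and 287 cells (0.328 points) and one with 577 and 53 (2.36 points). The median UMIs of knockout cells were 1.08 times the wild-type median in the former and 0.740 times in the latter, and the part of depth was not tested. By cluster, the knockout share was above the wild-type share with an interval clear of 0 in 10 of 16 clusters at homeostasis and in 11 of 14 after 5-FU, and below it in 4 and 3. These intervals leave out the spread between cells, and some of the clusters are small. After 5-FU, 1 of them had 17 wild-type and 2 knockout cells (3.61 points), and another had 3 and 7 (1.56 points). Nothing is read from these counts.

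LT-HSC-like cells of the genotypes had nearly the same share at homeostasis and differed more after 5-FU. At homeostasis it was 26.40% for the wild type and 26.47% for the knockout, a difference of 0.064 points (0.0258 to 0.102). Most of these wild-type cells, 961, lay in one cluster and most of the knockout cells, 1381, in another, and the difference was 0.086 points within the first and 0.704 within the second. The direction of the class difference at homeostasis turned under the 80% hashtag rule (-0.637), without the quality and lineage filters (-0.503) and at a Leiden resolution of 0.5 (-0.522). With mitochondrial and nuclear RNA left out of the total the difference was 0.0246 (-0.0150 to 0.0641), and its interval held 0. After 5-FU the shares of LT-HSC-like cells were 29.19% (wild type) and 30.21% (knockout), a difference of 1.02 points (0.961 to 1.07) that stayed above 0 under every alternative tried, between 0.223 and 1.27. There too the genotypes lay mostly in different clusters. The difference was 1.43 points in the cluster with 425 wild-type and 195 knockout cells and 0.0982 in the cluster with 169 and 525. Knockout LT-HSC-like cells after 5-FU had 3.74% of UMIs from mitochondrial genes against 3.31% in the wild type, and with mitochondrial genes left out of the total the difference was 1.19 points.

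Gene by gene, none of the 80 differed much between genotypes over all kept cells in either library. With 1 pool per genotype, a gene was counted as called where its log2 ratio was at least 0.32 in size (0.322 unrounded). At homeostasis 0 were higher in knockout cells by that limit, where 10.3% of the 12737 genes were, and 0 were lower, where 8.60% were. After 5-FU 0 were higher, where 8.75% of all genes were, and 0 were lower, where 11.6% were. These genes are counted far more deeply than most, and among 38 other genes counted at least as highly as the least counted of the 77 that are not paralogs, 0 were higher and 2 lower at homeostasis, and 1 higher and 0 lower after 5-FU. Ratios below are log2 ratios of knockout over wild-type CPM. Their median over the 80 was 0.0044 at homeostasis, beside 0.0087 over all genes, and 0.017 after 5-FU, beside -0.0165. Counting intervals lay above 0 for 33 of the 80 and below 0 for 32 at homeostasis, against 27.3% and 25.1% of all genes, and for 40 and 27 after 5-FU, against 24.3% and 28.3%. The interval narrows with the count, and of the 38 other highly counted genes 16 lay above and 20 below at homeostasis and 20 and 15 after 5-FU, so nothing is read from how many of the 80 were clear of 0. By subunit there were 15 above and 11 below among 31 small-subunit genes and 18 and 20 among 46 large-subunit genes at homeostasis, and 18 and 10, and 20 and 17, after 5-FU.

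The genes farthest from 0 differed in part between the libraries. At homeostasis Rpl15, a Diamond-Blackfan anemia gene of the large subunit, had 1400 CPM in wild-type and 1226 in knockout cells, a log2 ratio of -0.19, and Rpl30 had 3063 and 2701 CPM (-0.18). Rpl21 had 2812 and 3157 CPM (0.17), Rps27 had 4851 and 5385 (0.15) and Rplp2 had 3673 and 4055 (0.14). After 5-FU Rpl39 had 4191 and 3551 CPM (-0.24) and Rps15a had 4335 and 3950 (-0.13). At the other end Rpl14 had 2718 CPM in wild-type and 3158 in knockout cells (0.22), Rpl22l1 had 830 and 982 (0.24) and Rps27l had 288 and 349 (0.28). Rpl39 was lower in knockout cells in both libraries, with 7913 and 7134 CPM at homeostasis (-0.15), and also in each named class of both libraries. Over the 80 genes, 45 had ratios of the same sign in both libraries, 37 of them with both intervals clear of 0, and 19 had intervals on opposite sides. These counts were not made over all genes, and nothing is read from them.

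**Figure D3:**
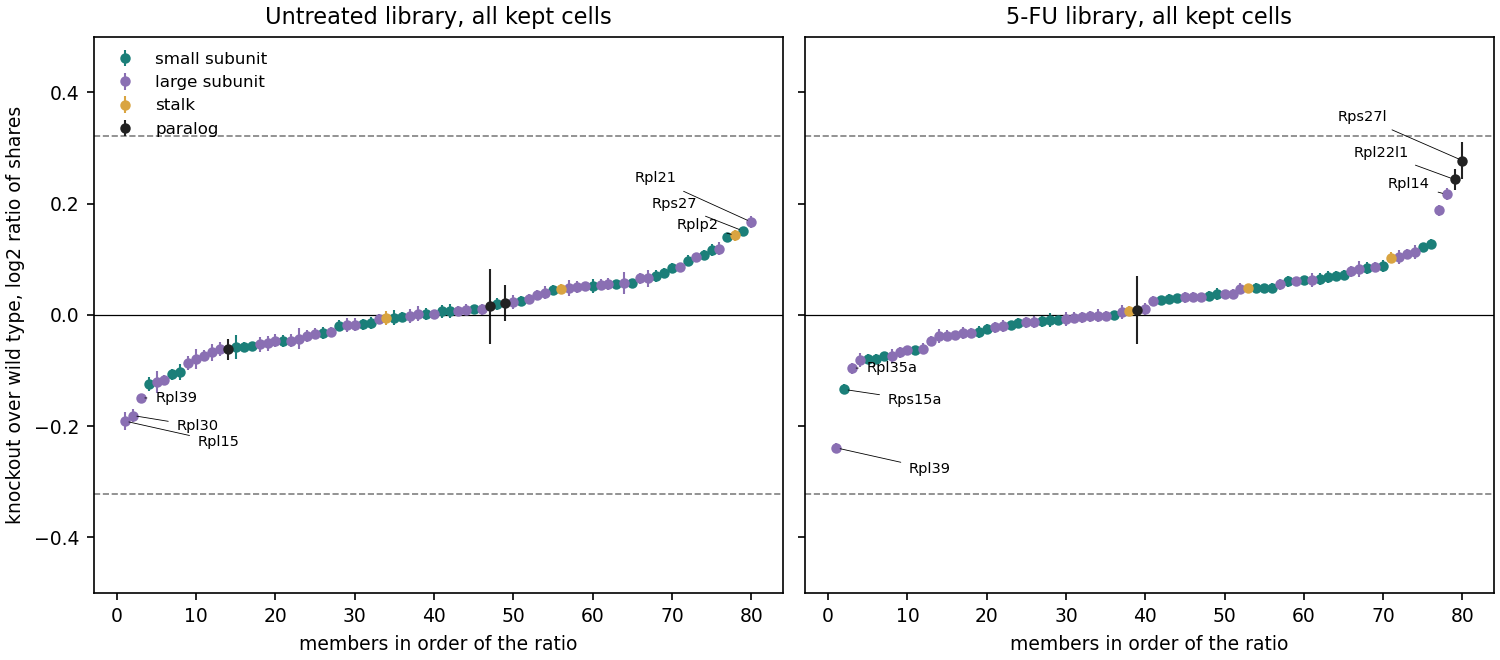
Log2 ratio of knockout over wild-type CPM in all kept cells for each of the 80 genes in order, at homeostasis (left) and in the 5-FU library (right). Vertical lines are 95% counting intervals and dashed lines mark the limit of 0.32, which no gene reaches: the ratios run from -0.19 (Rpl15) to 0.17 (Rpl21) at homeostasis and from -0.24 (Rpl39) to 0.28 (Rps27l) after 5-FU.

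The pools differed in makeup. LT-HSC-like cells were 1168 of 10284 wild-type but 2054 of 4120 knockout cells at homeostasis, and 594 of 4837 and 720 of 3292 after 5-FU. At homeostasis 1381 of the knockout cells lay in a cluster led by Agbl4 and Elavl4, with 6 of 9 LT-HSC markers raised. An unnamed cluster of 82 wild-type and 708 knockout cells had both among its leaders too. LT-HSC-like cells at homeostasis numbered 961 (wild type) and 673 (knockout) with markers at 2-fold. They numbered 1415 and 1124 with genes that differ between genotypes left out of the clustering. Rps27l was low in LT-HSC-like cells of both genotypes. Over all kept cells at homeostasis its level was 324 CPM (wild type) and 329 CPM (knockout), a log2 ratio of 0.02. Within classes at homeostasis it was higher in knockout cells each time, with 224 and 261 CPM in LT-HSC-like, 364 and 404 in MkE-primed-like, 405 and 445 in myeloid-primed-like and 315 and 416 in lymphoid-primed-like cells. After 5-FU the pairs were 194 and 218, 331 and 394, and 414 and 517 CPM in LT-HSC-like, MkE-primed-like and myeloid-primed-like cells. Rpl41, which encodes the smallest ribosomal protein, had a like pattern at homeostasis, with 3877 and 3858 CPM over all cells, but 3108 and 3221 in LT-HSC-like and 4392 and 4812 in myeloid-primed-like cells.

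Within LT-HSC-like cells, 1 gene passed this limit between genotypes. At homeostasis 0 genes were higher in knockout cells by it, where 8.79% of all genes were, and 0 lower, where 12.9% were. After 5-FU 1 was higher, where 13.6% of all genes were, and 0 were lower, where 18.2% were. That gene was Rpl14 of the large subunit, with 2259 CPM in wild-type and 2849 in knockout cells, a log2 ratio of 0.33 (0.30 to 0.37), just past the limit. Rpl14 also stood higher in knockout cells in the MkE-primed-like (3044 and 3563 CPM) and myeloid-primed-like cells (3127 and 3496) of that library, and had 2211 and 2282 CPM in LT-HSC-like cells at homeostasis. Next after 5-FU came Rpl13a with 2917 and 3425 CPM (0.23), Rps6, the target of S6 kinase, with 2635 and 3069 (0.22), and Rps3a1 with 4373 and 5066 (0.21). All 3 had ratios below 0 in LT-HSC-like cells at homeostasis, between -0.09 and -0.06. Lowest after 5-FU was Rpl39 with 4184 and 3473 CPM (-0.27), and lowest at homeostasis was Rpl30 with 3176 and 2727 (-0.22).

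Between cell classes, few of these genes differed, and those that did were mostly lower in LT-HSC-like cells. In wild-type cells at homeostasis 0 were past the limit of 0.32 upward in LT-HSC-like against the other cells, where 25.4% of all genes were, and 2 were lower, where 17.0% were. After 5-FU 1 was higher, where 34.8% of all genes were, and 5 were lower, where 18.9% were. In knockout cells at homeostasis 0 were higher (27.7% of all genes) and 4 lower (17.3%), and after 5-FU 1 was higher (36.4%) and 5 lower (21.3%). Each count is a smaller share of the 80 than the share of all genes called in the same direction. Among the 38 other highly counted genes, 2 were higher and 9 lower in wild-type LT-HSC-like cells at homeostasis, and 2 and 12 in the 5-FU library. Over the 80 genes the median log2 ratio in wild-type cells was -0.04 at homeostasis and -0.07 after 5-FU, beside 0.06 and 0.14 over all genes.

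Rps27l, a paralog of Rps27 that is known as a p53 target, was the lowest of all in LT-HSC-like cells in both libraries and genotypes. Among wild-type cells its level was 224 CPM in LT-HSC-like and 335 CPM in the other cells at homeostasis (log2 ratio -0.58, -0.65 to -0.51), and 194 and 297 CPM after 5-FU (-0.61). In knockout cells the values were 261 and 381 CPM at homeostasis (-0.54) and 218 and 371 CPM after 5-FU (-0.76). Rpl41 passed the limit in all 4 comparisons too, with 3108 and 3960 CPM in wild-type cells at homeostasis (-0.35) and 2299 and 3047 after 5-FU (-0.41). Its wild-type ratio at homeostasis lies near the limit, and was at -0.307 without quality and lineage filters and at -0.321 relative to the family's own total, short of it.

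Rps2 and Rpsa, which sit on the small subunit near the mRNA path, and Rpl4 were lower in LT-HSC-like cells after 5-FU and less so at homeostasis. Rps2 had 1803 CPM in LT-HSC-like and 2661 in other wild-type cells after 5-FU (log2 ratio -0.56) and 629 and 759 at homeostasis (-0.27). Rpsa, also known as the laminin receptor, had 3653 and 5017 CPM (-0.46) and 2929 and 3531 (-0.27). Rpl4 had 1263 and 1628 CPM (-0.37) and 1032 and 1157 (-0.17). In knockout cells Rps2 passed the limit in both libraries, Rpsa and Rpl4 after 5-FU, and Rpl22l1 at homeostasis.

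On the other side, Rps27 alone passed the limit upward, at 2558 CPM in LT-HSC-like and 2046 in other wild-type cells after 5-FU, a log2 ratio of 0.32 (0.29 to 0.35) that lies at the limit itself, and 2680 and 1978 in knockout cells (0.44). The wild-type call was lost under 6 of the alternatives, those listed with a count of 0 in the closing section. At homeostasis it had 5426 and 4790 CPM in wild-type cells (0.18). Rpl21 had 3262 and 2764 CPM at homeostasis (0.24) and 3984 and 3690 after 5-FU (0.11). Rps14, whose loss underlies the anemia of the 5q- syndrome, had 4624 and 3983 CPM (0.22) and 6694 and 5943 (0.17). Across the 80 genes the wild-type ratio had the same sign in both libraries in 57, with 49 on the same side by both intervals and 11 on opposite sides. These counts were not made over all genes either, and nothing is read from them. Pearson's r over genes was 0.76, a description over genes that share a library and are not independent.

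**Figure D4:**
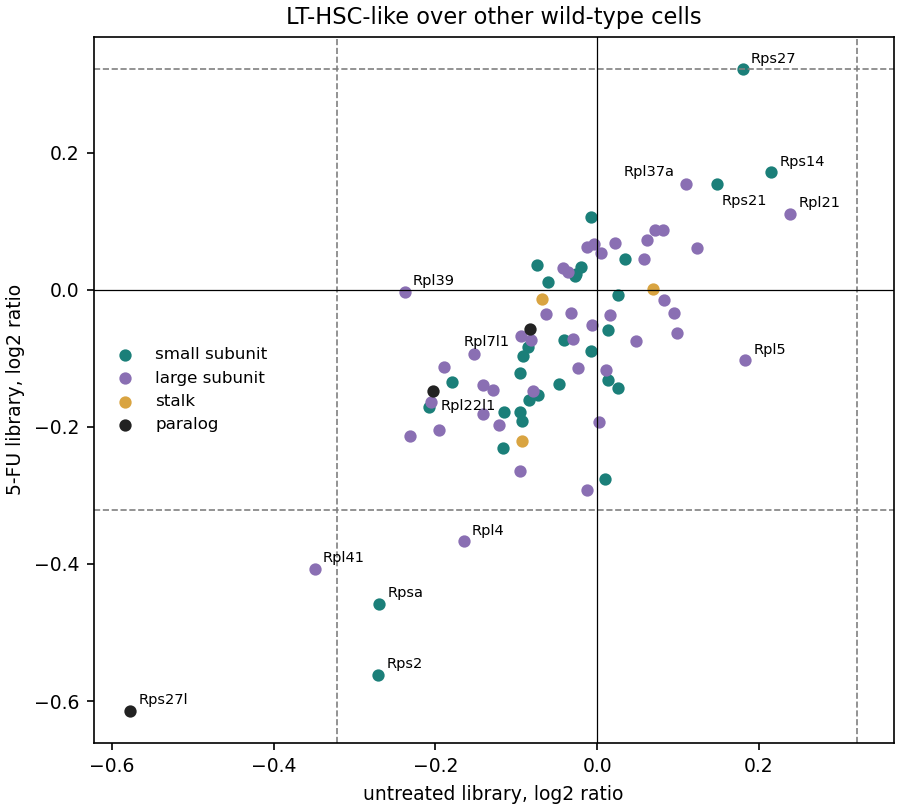
Log2 ratio of LT-HSC-like over other wild-type cells for each of the 80 genes, at homeostasis (x axis) and in the 5-FU library (y axis), with the limit of 0.32 dashed. Rps27l lies lowest on both axes (-0.58 and -0.61), Rpl41 passes the line on both, Rps2, Rpsa and Rpl4 on the y axis, and Rps27 lies at the upper line on the y axis at 0.32.

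The family's share as a whole was lower in LT-HSC-like than in other wild-type cells, with differences of -0.53 points at homeostasis and -1.38 after 5-FU. In knockout cells the differences were -1.16 and -0.646 points. The wild-type difference at homeostasis was 1.04 points, in the other direction, when no quality or lineage filter was used. Under the other alternatives it ran from -1.78 to -0.245. After 5-FU the difference stayed negative under every alternative, from -1.54 to -0.448. LT-HSC-like wild-type cells were shallower than the others, with medians of 5808 against 7165 UMIs at homeostasis and 7778 against 9685 after 5-FU, and had more nuclear Malat1, at 2.04% against 1.30% and 1.53% against 0.988% of UMIs. With mitochondrial and nuclear RNA left out of the total, the difference was -0.305 points at homeostasis and -1.28 after 5-FU.

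In the MkE-primed-like and myeloid-primed-like classes 2 or fewer genes passed the limit, and lymphoid-primed-like cells were not compared gene by gene with the other cells. Of the 80, 0 were higher (16.1% of all genes) and 0 lower (18.3%) by the limit in MkE-primed-like than in other wild-type cells at homeostasis, and 0 higher (14.6%) and 0 lower (27.1%) after 5-FU. The highest ratio after 5-FU was that of Rpl41, with 3526 against 2903 CPM (0.28 on the log2 scale). In myeloid-primed-like cells 1 gene, Rps27l, was higher at homeostasis (10.5% of all genes) and 0 lower (20.2%), with 405 against 302 CPM (0.42). After 5-FU 2 were higher (15.6%) and 0 lower (40.3%): Rps27l with 414 against 268 CPM (0.63) and Rpl4 with 1970 against 1534 (0.36). S phase genes were at 0.188% of UMIs in these cells and 0.0958% in all kept wild-type cells at homeostasis, and at 0.287% and 0.121% after 5-FU, and their part in these values was not tested.

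The paralogs Rps27 and Rps27l moved apart across classes, whereas Rpl22 and Rpl22l1 were both lower in LT-HSC-like cells. Among the classes compared Rps27 was highest and Rps27l lowest in LT-HSC-like cells, and wild-type cells held 24.2 molecules of Rps27 per Rps27l molecule in LT-HSC-like and 11.8 in myeloid-primed-like cells at homeostasis. After 5-FU this ratio was 13.2 and 4.31. Some unnamed clusters, though not all, had like levels. In wild-type cells Rps27 had 6401 CPM in an unnamed cluster at homeostasis. In another after 5-FU Rps27 had 2456 CPM and Rps27l 197.6. Rps27 shares all searched 3′ stretches with another transcript, so its own level is uncertain. Rpl22, an RNA-binding protein needed for T cell development, had 2026 CPM in LT-HSC-like and 2310 in other wild-type cells at homeostasis, and Rpl22l1 had 881 and 1014. Between genotypes Rpl22l1 had 1001 CPM (wild type) and 959 CPM (knockout) at homeostasis (log2 ratio -0.06) and 830 and 982 CPM after 5-FU (0.24), while Rpl22 was at -0.09 and -0.07. Rpl7l1 had intervals that held 0 between genotypes over all kept cells and in LT-HSC-like cells, and between LT-HSC-like and other cells. In MkE-primed-like wild-type cells it had 85.5 against 74.3 CPM in the other cells at homeostasis (0.20, 0.05 to 0.35) and 98.2 against 88.2 after 5-FU (0.16, 0.03 to 0.28), and MkE-primed-like knockout cells had 102.7 and 90.3 CPM. The paralogs of Rpl39, Rpl3 and Rpl10 fell under the minimum, so Rpl39 is described from its own row only, and no values of Rpl3 and Rpl10 are printed. Rps4x (4443 CPM in wild-type and 4364 CPM in knockout cells after 5-FU) had no paralog row among the matching symbols.

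The stalk proteins, which recruit the translation factors to the large subunit, differed from one another. Rplp0 had 2424 CPM (wild type) and 2414 CPM (knockout) at homeostasis (log2 ratio -0.01) and 4187 and 4205 after 5-FU (0.01). Rplp1 had 5240 and 5412 CPM (0.05) and 5882 and 6081 (0.05), and Rplp2 had 3673 and 4055 (0.14) and 3974 and 4268 (0.10). Rplp2 was higher in knockout cells in each named class of both libraries, for example with 3519 and 3908 CPM in LT-HSC-like cells at homeostasis. Rplp0 was lower in LT-HSC-like than in other wild-type cells, with 2286 against 2438 CPM at homeostasis (-0.09) and 3640 against 4242 after 5-FU (-0.22), whereas Rplp1 had ratios of 0.07 and 0.00.

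Rpl5 and Rpl11, which with 5S rRNA form the particle that binds Mdm2 when ribosome assembly fails, barely differed between genotypes over all cells. Rpl5 had log2 ratios of 0.00 at homeostasis and -0.01 after 5-FU, and Rpl11 had -0.04 and 0.00. In LT-HSC-like cells Rpl5 at homeostasis had 2285 CPM (wild type) and 2144 CPM (knockout), a ratio of -0.09, but 2827 and 3187 after 5-FU (0.17). Rps19, the gene most often mutated in Diamond-Blackfan anemia, had 2929 and 3175 CPM at homeostasis (0.12) and 4720 and 4954 after 5-FU (0.07), and was higher in knockout cells in each named class. Over the 19 Diamond-Blackfan anemia genes counted, 0 were past the limit in either direction, as for the family (8.60% to 11.6% of all genes were), and nothing is read from this count. Their median ratio was -0.0177 at homeostasis and -0.0110 after 5-FU, beside 0.0087 and -0.0165 over all genes.

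The share of the family was lower in cells with many mitotic transcripts. Cells with at least 4000 UMIs were thinned to that number, and shallower cells were left out. Wild-type cells with 0 UMIs of 16 G2 and mitosis genes (Mki67, Top2a, Cdk1 and others) had a mean share of 27.8% ± 4.38 (SD over 4940 cells) at homeostasis. Those with 11 or more had 24.6% ± 3.70 (984 cells). Knockout cells had 27.9% ± 4.79 (2149 cells) and 24.9% ± 3.996 (274 cells). After 5-FU the means were 30.5% ± 3.52 (2237 cells) and 27.2% ± 4.49 (367 cells) in wild-type and 30.9% ± 3.36 (1655 cells) and 28.2% ± 3.33 (316 cells) in knockout cells. Cells of 1 pool are not replicates, so these are descriptions of the pools. Depth moved with the bins: before thinning, wild-type cells with 0 and with 11 or more such UMIs had medians of 6416 and 12458 UMIs at homeostasis, and 9054 and 17332 after 5-FU. The part of depth was not tested, since thinning leaves the share expected of a cell as it was. For 16 S phase genes the means of wild-type cells with 0 and with 11 or more UMIs were closer, at 27.3% and 26.7% at homeostasis and 30.3% and 29.6% after 5-FU. Clusters led by cell cycle genes lay on both sides of all kept cells of both genotypes, which had 26.95% at homeostasis and 30.59% after 5-FU. The cluster led by histone genes had 24.7% and that led by Cenpf and Ccnb2 26.1% at homeostasis, and the like clusters had 28.9% and 29.5% after 5-FU. The clusters with the replication genes Ung, Uhrf1 and Hells among their leaders had 27.76% and 31.60%.

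**Figure D5:**
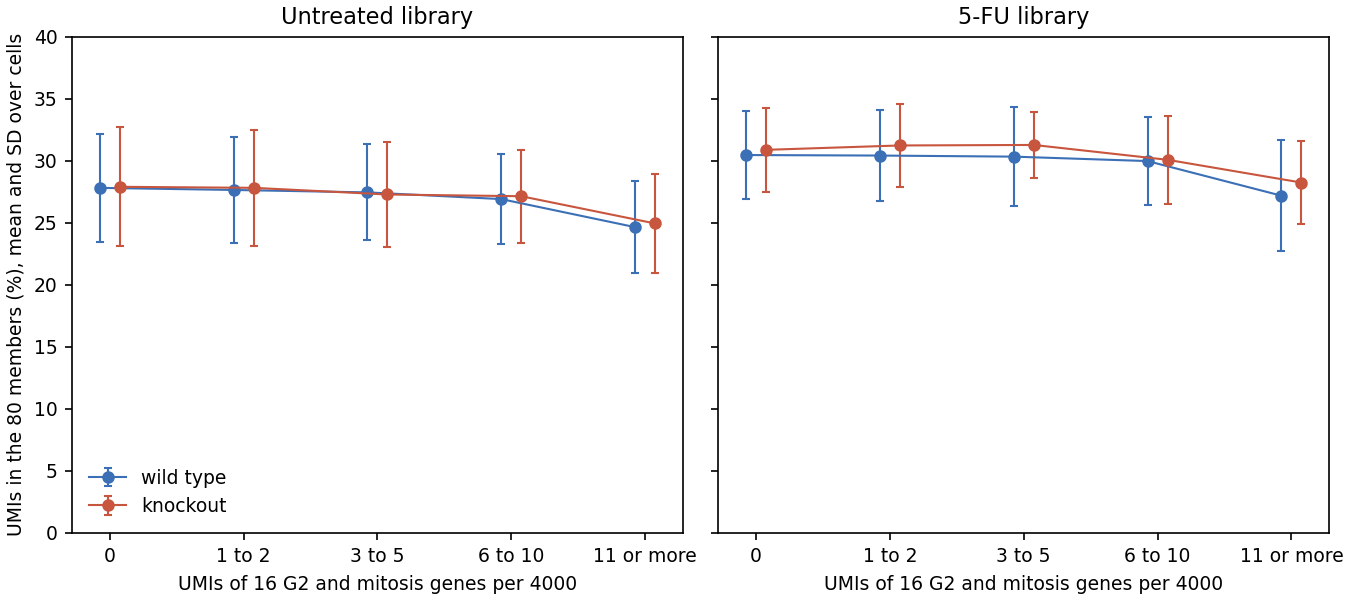
Mean percent of UMIs in the 80 genes (error bars are SD over cells) against the number of UMIs of 16 G2 and mitosis genes, in cells thinned to 4000 UMIs, by genotype, at homeostasis (left) and in the 5-FU library (right). The share stays near its level up to 5 UMIs and is lowest at 11 or more, where it is 24.6% (wild type) and 24.9% (knockout) at homeostasis, and 27.2% and 28.2% in the 5-FU library.

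Ribosome biogenesis and mitochondrial ribosomal protein genes differed more between LT-HSC-like and other cells than the ribosomal proteins themselves. Not all related genes did so. At homeostasis other TOP mRNAs held 1.60% of UMIs in LT-HSC-like and 1.65% in other wild-type cells. The snoRNA host genes described below held 0.294% and 0.281%. Of 27 ribosome biogenesis genes, such as Ncl and Fbl of the nucleolus and the polymerase I subunit Polr1b, 23 were past the limit downward and 1 upward in LT-HSC-like against other wild-type cells after 5-FU (18.9% and 34.8% of all genes), with a median log2 ratio of -0.68. At homeostasis 7 were past it downward and 0 upward (17.0% and 25.4%), with a median of -0.21. Of 78 mitochondrial ribosomal protein genes 25 were past it downward at homeostasis and 30 after 5-FU, and 0 upward in both, with medians of -0.24 and -0.25. In myeloid-primed-like wild-type cells 13 of the 27 biogenesis genes were past the limit upward and 0 downward at homeostasis (10.5% and 20.2% of all genes), and 19 and 1 after 5-FU (15.6% and 40.3%). Cell cycle genes moved with these lists. All 16 G2 and mitosis genes and all 16 S phase genes were past the limit downward in LT-HSC-like cells in both libraries, and the 16 S phase genes were past it upward in myeloid-primed-like cells in both, and the part of this was not tested.

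Between genotypes over all kept cells, biogenesis genes had a median of -0.16 at homeostasis, with 17 intervals below and 2 above 0, and of -0.00056 after 5-FU, with 7 and 8. Over all genes 25.1% of intervals were below and 27.3% above at homeostasis, and 28.3% and 24.3% after 5-FU. The 14 other TOP mRNAs, which include elongation factors and Pabpc1, had 10 below and 3 above at homeostasis and 5 and 8 after 5-FU. Mitochondrial ribosomal protein genes had 23 below and 14 above at homeostasis and 5 and 51 after 5-FU, with a median of 0.14 there. Of 8 snoRNA host genes, TOP transcripts such as Gas5 and Snhg1 whose introns carry small nucleolar RNAs, 6 were below and 1 above in both libraries, with medians of -0.21 and -0.20. G2 and mitosis genes moved in opposite directions beside these values. Of them, 16 of 16 lay below 0 at homeostasis (median -0.39) and 15 of 16 above after 5-FU (median 0.30). Their part was not tested. Biogenesis genes held 0.299% (wild type) and 0.263% (knockout) of all UMIs of the homeostasis pools. By class these pairs were 0.252% and 0.230% for LT-HSC-like cells and 0.341% and 0.343% for MkE-primed-like cells. They were 0.364% and 0.353% for myeloid-primed-like and 0.280% and 0.267% for lymphoid-primed-like cells. The unequal makeup of the pools may thus enter the values over all kept cells, and its part was not tested.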

How the data were processed

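LSK cells were sorted, tagged by genotype, pooled and sequenced with the 10x Genomics 3′ v3 kit. The deposited values are raw UMI counts per gene and barcode that the authors made with Cell Ranger. The labels list Cell Ranger, Seurat, DESeq2 and mm9 without roles or versions. The homeostasis matrix listed 6794880 barcodes, unfiltered, and took its gene names, row by row, from the 5-FU features. Log counts of the matrices correlated over genes at 0.919 in that order and at most 0.393 with rows shifted.

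Barcodes with at least 2921 UMIs were called cells at homeostasis, and all 12753 barcodes of the 5-FU matrix were taken as cells. Tags were called with HTODemux (Seurat 5.3.0, quantile 0.99), and singlets were kept. Cells outside the central range of UMIs, genes detected or mitochondrial share (2% cut from each end), 1383 at homeostasis and 609 after 5-FU, and cells with 2 or more lineage UMIs, 420 and 291, were removed. Doublets carrying both tags were removed (1441 and 434), and doublets within a genotype remain. Libraries were clustered separately (scanpy 1.11.5, 2000 variable genes, 30 components, 20 neighbours, Leiden resolution 1). A class name needed at least 3 markers, and most of the class's markers, raised at 1.5-fold. The fraction of markers raised had to exceed that of the next class by 0.2 or more. No other class could have more markers among the leading genes. Shallow clusters with none of the class's markers among these genes were not named. This rule was settled after clusters and shares had been seen. Counts were summed per pool, and a ratio is the log2 ratio of the sums with 0.5 UMIs added over pool totals. No test was possible with 1 pool per genotype, so a gene with a log2 ratio of at least 0.322 in size was counted as called among the 12737 genes with 100 or more UMIs in each file. The ratio was tested on simulated data. No column of another series was used.

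The members, gene lists and markers were chosen with earlier results of these data known. Genes named are the stalk, 5S particle, Rps19 and paralog pairs, the 5 most and 5 least counted, and per library the 5 highest and 5 lowest ratios of each comparison described by gene, and other genes were named after their values were seen. Transcripts are from GENCODE and start windows from RefSeq. Protein sequences were not used here. Values of some genes are not reported here.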

Additional observations from a re-analysis of the deposited data

Results flagged for a closer look

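Some ribosomal protein genes lay on opposite sides of 0 in the libraries when knockout was compared with wild type, with log2 ratios of at least 0.05 in size in both and at least 0.1 in one. In each such case the difference between the libraries was not tested, since each library holds 1 pool per genotype. How many of all genes lay on opposite sides was not counted, and nothing is read from the number of genes listed.

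Over all kept cells, Rpl22l1 had a ratio of -0.0618 at homeostasis and 0.243 after 5-FU, and Rpl7a had -0.121 and 0.104.

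In LT-HSC-like cells 7 genes described here were on opposite sides, each below 0 at homeostasis and above 0 after 5-FU. Rpl30 had -0.22 and 0.0756, Rpl5 had -0.0924 and 0.173, and Rps3a1 had -0.0928 and 0.212. Rps6 had -0.0631 and 0.22, and Rpl13a had -0.0577 and 0.231. Rpl22l1 had -0.0902 and 0.142, and Rpl4 had -0.0732 and 0.106.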

How the results depend on the processing

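The share differences are small, and several moved with the processing by more than their counting intervals. The values given in order are the knockout minus wild-type share (percentage points) over all kept cells, the same in LT-HSC-like cells, and the LT-HSC-like minus other share in wild-type cells, at homeostasis and after 5-FU each time. As reported they are 0.244 and 0.316, 0.064 and 1.02, and -0.53 and -1.38. With the 80% hashtag rule they were -1.12 and -0.395, -0.637 and 0.223, and -1.17 and -1.44. Without quality and lineage filters they were 0.337 and 0.0744, -0.503 and 0.529, and 1.04 and -0.448. Without mitochondrial genes in the total they were 0.315 and 0.343, 0.131 and 1.19, and -0.519 and -1.45. With nuclear RNA left out as well they were 0.317 and 0.289, 0.0246 and 1.19, and -0.305 and -1.28. As means of cells they were 0.228 and 0.557, 0.0968 and 1.27, and -0.602 and -0.76. With cells of at least 4000 UMIs thinned to that number they were 0.237 and 0.559, 0.0644 and 0.918, and -0.629 and -1.16. With knockout cells weighted to the wild-type clusters the first pair was 0.396 and 0.717. The LT-HSC-like values, which depend on the clusters, were -0.522 and 0.653, and -0.596 and -1.54, at a Leiden resolution of 0.5. They were 0.194 and 1.2, and -1.35 and -1.52, when translation genes entered the clustering. With genes that differ between genotypes left out of the clustering, an alternative chosen after seeing the data, they were 0.15 and 0.778, and -1.78 and -1.18. With markers at 2-fold the LT-HSC-like minus other share at homeostasis was -0.245. Without the shallow 5-FU cluster of 167 cells, also chosen after seeing the data, the share over all kept cells differed by 0.391 and the LT-HSC-like minus other share was -1.43. The cause of these moves was not tested.

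The count of 0 genes past the limit of 0.32 between genotypes over all kept cells changed only after 5-FU without filters, where 1 was higher. The count higher in wild-type LT-HSC-like cells after 5-FU, 1 as reported, was 0 with the 80% hashtag rule, without filters, without mitochondrial genes, with translation genes in the clustering, without the genotype genes and without the shallow cluster, and the count lower, 5 as reported, was 12 at the resolution of 0.5 and 4 without filters and relative to the members' own total. At homeostasis the count lower, 2 as reported, was 4 with the 80% hashtag rule and without the genotype genes, 3 with translation genes in the clustering and 1 without filters and relative to the members' own total, and the count higher was 1 without filters. Of 2538 ratios recomputed for the 47 named genes, 935 left their counting interval and 175 took the other sign, all with a reported ratio of at most 0.147 in size, and the largest move was 0.284. No paired analysis was possible because each condition holds 1 pool of cells per genotype and the 2 libraries are different conditions, not replicates. Depth limits the thinly counted paralog Rpl7l1, and the spread between pools was not measured.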

Other observations

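Cells without a genotype tag under the main rule were left out of every comparison, except that the 80% hashtag rule drew on all cells. At homeostasis 6283 such cells had 27.1% of their UMIs in the 80 genes at a median of 5918 UMIs, and after 5-FU 3290 had 27.7% at a median of 4162.5 UMIs. Their Sin3b level was 29.0 and 21.7 CPM. Cells with both tags, 1441 and 434, had 26.7% and 30.2%, beside 26.7% and 30.4% in all cells with 1 tag before filters.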
